A study of Rattus norvegicus with 8 samples.

Results

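The genes described here are interferon-stimulated genes, a set of 39 rat genes chosen by name for their known induction by interferon. Earlier results of these data were known when they were chosen. The array carried probes for 37 of them, and Herc6 and Xaf1 had no probe. Of the 46 probes of these genes, 42 passed the filter on dim probes, which asked that both arrays of some group read well above background by the scanner software's call. These probes stand for 35 measured genes among 25097 features tested (a feature is a named gene or an unnamed probe). Oasl, which was well above background on 3 arrays, and Ifit1, which was so on 0 arrays, did not pass. Of the 35, 30 genes were well above background on all 8 arrays and 5 passed through some groups alone. Oas1k and Slfn4 passed through the smoke and EV arrays, Zbp1 through the smoke arrays, Usp18 through the naive, smoke and EV arrays and Oas3 through the smoke, EV and MSC arrays.

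RNA from lung tissue of male rats was hybridised to 8 one-colour Agilent arrays, 2 in each of 4 groups. The naive rats breathed normal air. The smoke rats were exposed to cigarette smoke (CS) for 12 weeks in a smoking chamber and received no cells or vesicles. The EV rats had the same 12 weeks of smoke and were then given hUC-MSC-EV, the extracellular vesicles shed by human umbilical cord mesenchymal stem cells, into the trachea in week 13. The MSC rats had the same smoke and were given about 2500000 hUC-MSC, the stem cells themselves, by the same route in week 13, and the vesicle dose was what the same number of cells yielded. The strain, the age of the rats, the time between treatment and sampling, and whether an array held 1 rat or a pool were not given in the sources used here. The cells and vesicles were of human origin and the array was designed for rat transcripts.

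Interferons are secreted proteins by which cells warn each other of infection. Type I interferons bind a receptor whose kinases phosphorylate STAT2, which joins IRF9 in a complex that binds interferon-stimulated response elements (ISREs) near target genes. Interferon gamma acts mainly through gamma-activated sites (GAS). In the lung this response is best known from respiratory virus infection, in which epithelial cells and macrophages make proteins that degrade viral RNA, trap virus particles and amplify the signal.

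The promoters of the set were described first, since the ISRE is the element through which such genes are induced. RefSeq promoter windows (rat build GRCr8, 250 bases before to 50 bases after the annotated start, on the gene's strand) were matched by symbol for 28 of the 39 genes. Those not matched were Oas1k, Oas2, Mx2, Isg15, Ifit1, Ifit2, Usp18, Rtp4, Dhx58, Zbp1 and Adar. The ISRE core (GAAA, any 2 bases, GAAA), read on either strand, was present in 17 of the 28 windows (60.7%), against 3.92% of all 33469 windows of the same length. The GAS motif (TTC, any 3 bases, GAA), which is its own reverse complement, was present in 5 of the 28 (17.9%), against 8.87% of all windows. Neither motif can lie inside the other, and in Bst2 a GAS match overlapped an ISRE core. Among genes measured as higher in smoke than in naive lung 3 of 5 windows held the ISRE core, among those measured as lower 3 of 6, and among those with no call 10 of 14. The stretches below, each with its ISRE core in capitals, are shown because genes with this element stood on both sides of the smoke comparison. The first 3 belong to genes higher in smoke (Oas1a at chr12:41330406-41330465 on the plus strand, Isg20 at chr1:142239942-142240001 on the plus strand, Ifi27 at chr6:128355203-128355262 on the plus strand).
Oas1a: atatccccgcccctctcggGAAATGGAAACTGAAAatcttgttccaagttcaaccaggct
Isg20: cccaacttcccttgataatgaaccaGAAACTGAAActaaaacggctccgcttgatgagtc
Ifi27: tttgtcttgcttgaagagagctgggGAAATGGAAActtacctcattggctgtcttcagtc
The next 3 belong to genes lower in smoke relative to each array's 75th percentile (Oas3 at chr12:41439612-41439671 on the plus strand, Ifi44 at chr2:243303841-243303891 and Rsad2 at chr6:48788233-48788292, both on the minus strand), all 3 of which turned positive under spike-in scaling, with Rsad2 then not called (adjusted p = 0.0992).
Oas3: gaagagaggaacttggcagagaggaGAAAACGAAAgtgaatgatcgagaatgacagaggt
Ifi44: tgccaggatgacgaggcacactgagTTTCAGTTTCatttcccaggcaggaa
Rsad2: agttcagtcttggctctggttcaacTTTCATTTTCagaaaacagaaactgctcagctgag
The last pair belongs to genes with no call for smoke that were called after treatment (Irf7 at chr1:205800058-205800117 and Bst2 at chr16:18255058-18255117, both on the minus strand).
Irf7: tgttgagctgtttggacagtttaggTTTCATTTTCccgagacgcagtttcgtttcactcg
Bst2: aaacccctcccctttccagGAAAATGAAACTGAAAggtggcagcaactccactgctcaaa
In Oas1a and Bst2 a pair of ISRE cores overlap, so that the capitals run past 1 core, and in Ifi44, Rsad2 and Irf7 the core is read on the opposite strand.

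The unit of all levels below is log2 of the probe's processed signal minus log2 of the 75th percentile of its array, so 0 is the array's 75th percentile, and a difference of 1 is a doubling relative to it. Probes differ in brightness, so levels were compared between arrays for a probe and never between genes. The arrays themselves differed in brightness: the 75th percentile was 568 and 362 for naive, 3235 and 2677 for smoke, 762 and 483 for EV and 246 and 256 for MSC lung. In geometric means smoke was thus 6.49 times naive, whereas the E1A spike-in controls, RNA of known amount added before labelling, were at 0.832 times naive. Scaling to these controls adds 2.96 to every smoke minus naive difference, -2.48 to every EV minus smoke difference and -4.02 to every MSC minus smoke difference, so directions are given relative to the 75th percentile and the spike-in value stands beside those that turn. Lung markers of alveolar, airway and endothelial cells with a measured probe were well above background on all 8 arrays, in 15 of the 16 genes listed, the other being Abca3.

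Smoke-exposed lung split the interferon-stimulated genes. Relative to the array, Oas1k, Slfn4, Oas1a, Usp18, Ifi27, Isg20 and Ifi35 were higher than in naive lung, by 1.52 (Ifi35) to 3.93 (Oas1k) on the log2 scale. Oas2, Rsad2, Mx2, Ifi44, Oas3, Trim25, Stat2 and Irf9 were lower, with differences from -1.93 (Oas2) to -0.94 (Irf9), and all 8 of these differences turned positive under spike-in scaling (1.03 for Oas2 to 2.02 for Irf9), where 5 of them were called higher and Oas2, Rsad2 and Mx2 were not called. No call was made for the other 20 genes, among them Isg15, Mx1 and Irf7, common readouts of an interferon response, which other scalings did call higher, as given with each gene. Of the 35 measured genes, 7 were thus higher (12.1% of all features were) and 8 lower (35.4% of all features were), at an adjusted p under 0.05 by limma with Benjamini-Hochberg adjustment over all features. Oas1k and Slfn4 passed the filter through the smoke and EV arrays alone and were highest on the smoke arrays, so their place among the calls is in part set by the filter. Of the 30 genes well above background on all 8 arrays, 4 were higher and 7 lower. The median difference was 0.32 over the 35 genes and -0.16 over these 30, beside -0.62 over all features. Both smoke arrays lay above all 6 others in 12 genes (17.6% of all features did) and below all 6 in 10 genes (46.1% of all features did).

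The count of calls depended on the scaling and on single arrays. It was 8 higher and 6 lower with quantile normalisation (36.7% of all features called in either direction), 11 and 3 with cyclic loess (39.3%), 10 and 14 with normexp background correction (73.8%), and 32 and 0 with spike-in scaling (83.2%), under which all 35 genes had a positive difference. Oas3 and Irf9 lost the call with quantile normalisation and with cyclic loess, Mx2, Stat2 and Trim25 with cyclic loess, and Usp18 with normexp. Ifi44, Irf9, Isg20 and Rsad2 lost the call without smoke array 2. Irf9, Isg20, Oas3, Stat2, Trim25 and Usp18 did so without naive array 1, and Ifi35, Ifi44, Isg20, Rsad2 and Usp18 without naive array 2. The share of all features called in such fits is not given here, so these losses are not set against those of other genes. Of the 15 calls, 5 held without smoke array 1 (Oas1a, Ifi27, Slfn4, Oas2 and Rsad2). Smoke array 1 stood above smoke array 2 in 30 of the 35 genes (39% of all features did so), by a median of 0.60. Oas1a and Ifi27 kept the smoke call in every alternative.

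**Figure D1:**
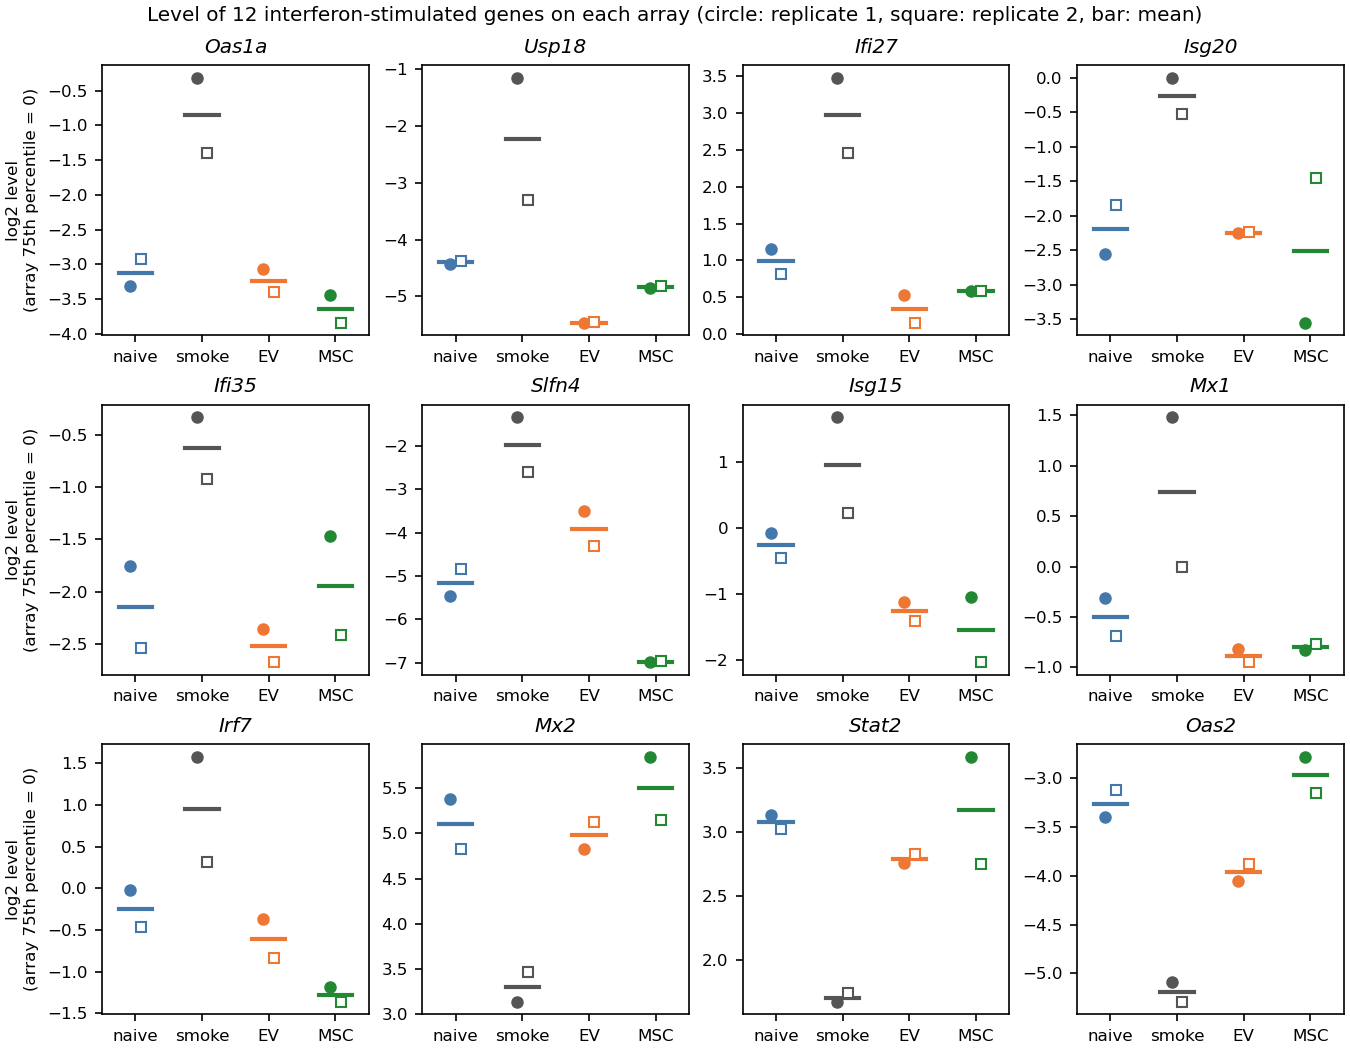
Log2 level (array 75th percentile = 0, y axis, scaled separately for each gene) of 12 interferon-stimulated genes on the 2 arrays of each group (x axis), with circles for replicate 1, squares for replicate 2 and bars for the mean. Both smoke points lie above the other groups for Oas1a, Usp18, Ifi27, Isg20, Ifi35, Slfn4, Isg15, Mx1 and Irf7 and below them for Mx2, Stat2 and Oas2, of which the last 3 turned positive under spike-in scaling.

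The transcription factors of the pathway divided as the set did. Irf7, the factor that amplifies type I interferon production, was at -0.02 and -0.46 in naive, 1.58 and 0.31 in smoke, -0.37 and -0.84 in EV and -1.19 and -1.36 in MSC lung. Both smoke arrays were the highest and both MSC arrays the lowest. The smoke minus naive difference of 1.19 missed the threshold (SE 0.44, adjusted p = 0.0591), but it passed with normexp (1.12, adjusted p = 0.00879), quantile normalisation (1.55, adjusted p = 0.0434), cyclic loess (1.60, adjusted p = 0.0335) and spike-in scaling (4.15, adjusted p = 8.08e-05). Irf7 fell by 1.55 in EV against smoke (adjusted p = 0.0291) and by 2.22 in MSC against smoke (adjusted p = 0.00399). These 3 comparisons share the smoke arrays, as they do for every gene below, and the SE of a gene's difference was the same in each because all groups had 2 arrays.

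Stat2, a subunit of the ISRE-binding complex, read 3.13 and 3.02 in naive, 1.67 and 1.74 in smoke, 2.75 and 2.83 in EV and 3.59 and 2.75 in MSC lung. Both smoke arrays lay below the other 6. The difference for smoke was -1.37 (SE 0.33, adjusted p = 0.0134), with 1.09 for EV against smoke (adjusted p = 0.0357) and 1.47 for MSC against smoke (adjusted p = 0.00683), and spike-in scaling turned these to 1.59, -1.40 and -2.55. Irf9, which gives that complex its DNA contact, was called lower in smoke (-0.94, SE 0.26, adjusted p = 0.0229) and higher in MSC against smoke (0.91, adjusted p = 0.0193), with 0.69 for EV against smoke (adjusted p = 0.0705), from a probe at 2.09 and 1.80 in naive, 1.02 and 1.00 in smoke, 1.65 and 1.75 in EV and 1.98 and 1.86 in MSC lung, and these 3 turned to 2.02, -3.11 and -1.79 under spike-in scaling. The second Irf9 probe, designed to another transcript record, went the other way, at -2.53 and -3.18 in naive and -1.50 and -2.04 in smoke lung, a difference of 1.08. With the mean of both probes the Irf9 difference for smoke was 0.07 (adjusted p = 0.852), so the call rests on the choice of probe.

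Irf1, a factor induced mainly by interferon gamma, had no call in the smoke comparison (-0.48, SE 0.30, adjusted p = 0.21), in EV against smoke (-0.02, adjusted p = 0.97) or in MSC against smoke (0.18, adjusted p = 0.623). Its level ran from 2.03 to 2.69 over the 8 arrays, and the sign of the smoke difference was positive with quantile normalisation (0.045), cyclic loess (0.17) and spike-in scaling (2.48). Spike-in scaling called Irf1 higher in smoke (adjusted p = 0.000841) and lower in EV against smoke (-2.50, adjusted p = 0.00118) and MSC against smoke (-3.84, adjusted p = 1.12e-05).

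The OAS proteins sense double-stranded RNA and make the messenger that switches on RNase L. Oas1a was at -3.31 and -2.93 in naive, -0.31 and -1.40 in smoke, -3.07 and -3.40 in EV and -3.44 and -3.84 in MSC lung. Only the smoke arrays stood apart. The differences were 2.26 for smoke (4.80-fold, SE 0.41, adjusted p = 0.00496), -2.38 for EV against smoke (adjusted p = 0.00606) and -2.79 for MSC against smoke (adjusted p = 0.00106). A second Oas1a probe gave 3.0, -2.94 and -3.79 for the same comparisons.

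Oas1k, a close relative of Oas1a whose transcripts a probe may share, read -6.68 and -4.70 in naive, -1.15 and -2.36 in smoke, -4.70 and -4.92 in EV and -6.95 and -5.0 in MSC lung. It was not well above background on either naive or either MSC array, so these levels are bounds. It passed the filter through the smoke and EV arrays alone. It was high on the smoke arrays, while the EV arrays were near naive array 2 and MSC array 2. Because of the filter, the comparisons with naive and MSC lung are given as sizes without their tests. The bound for smoke above naive was 15.3-fold, the same as the fitted fold, and the bound for MSC below smoke was 12.9-fold. Neither allows for the spread between the arrays of a group. Oas1k fell by 3.05 in EV against smoke (SE 0.82, adjusted p = 0.0235). Such a bound sets the mean of the bright group against the higher of the dim probe's own signal and the lowest signal well above background on each array. With normexp background correction the differences were 1.15 for smoke, -1.33 for EV against smoke and -0.55 for MSC against smoke, and the last was not called (adjusted p = 0.161).

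Oas2 and Oas3, the larger enzymes of the family, moved opposite to Oas1a relative to the array. Oas2 was at -3.40 and -3.12 in naive, -5.09 and -5.29 in smoke, -4.05 and -3.87 in EV and -2.78 and -3.15 in MSC lung. Its differences were -1.93 for smoke (SE 0.29, adjusted p = 0.00285), 1.23 for EV against smoke (adjusted p = 0.0146) and 2.23 for MSC against smoke (adjusted p = 0.000616), and spike-in scaling turned them to 1.03, -1.26 and -1.79. Oas3 read -4.39 and -5.0 in naive, -6.25 and -6.00 in smoke, -5.27 and -4.52 in EV and -3.79 and -4.05 in MSC lung, with differences of -1.43 (SE 0.36, adjusted p = 0.016), 1.23 (adjusted p = 0.0322) and 2.21 (adjusted p = 0.00169) that turned to 1.53, -1.25 and -1.81 under spike-in scaling. The smoke arrays were the lowest in both genes, and Oas3 was well above background on 1 of the 2 naive arrays. Oasl2 had no call in any comparison and ranged from -1.14 to 0.66. Oasl ranged from -7.23 to -2.35, its highest value on MSC array 1, and was mostly at background.

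The Mx proteins are GTPases that block viral nucleocapsids. Mx1 was at -0.31 and -0.69 in naive, 1.48 and 0.00 in smoke, -0.82 and -0.95 in EV and -0.83 and -0.76 in MSC lung. Both smoke arrays were the highest, with smoke array 1 well above the other. Its smoke difference of 1.24 missed the threshold (SE 0.47, adjusted p = 0.0609) and so did the one with quantile normalisation (1.58, adjusted p = 0.0509), but it passed with normexp (1.19, adjusted p = 0.00725), cyclic loess (1.64, adjusted p = 0.0378) and spike-in scaling (4.20, adjusted p = 7.47e-05). Mx1 fell by 1.62 in EV against smoke (adjusted p = 0.0297) and by 1.54 in MSC against smoke (adjusted p = 0.0234).

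Mx2 read 5.38 and 4.82 in naive, 3.13 and 3.47 in smoke, 4.83 and 5.13 in EV and 5.85 and 5.15 in MSC lung. The smoke arrays were the lowest, the opposite of Mx1. The differences of -1.80 for smoke (SE 0.36, adjusted p = 0.00682), 1.68 for EV against smoke (adjusted p = 0.0113) and 2.20 for MSC against smoke (adjusted p = 0.00163) turned to 1.16, -0.81 and -1.82 under spike-in scaling.

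ISG15 is a ubiquitin-like protein, TRIM25 is among the ligases that attach it, and USP18 removes it and also silences the type I receptor. Isg15 was at -0.07 and -0.45 in naive, 1.68 and 0.23 in smoke, -1.11 and -1.40 in EV and -1.04 and -2.03 in MSC lung. The groups did not overlap between smoke and any other. The smoke difference of 1.22 missed the threshold (SE 0.53, adjusted p = 0.0919), as with quantile normalisation and cyclic loess, but it passed with normexp (1.15, adjusted p = 0.00877) and spike-in scaling (4.18, adjusted p = 0.000102). Isg15 fell by 2.21 in EV against smoke (adjusted p = 0.0161) and by 2.50 in MSC against smoke (adjusted p = 0.00512).

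Usp18 read -4.43 and -4.37 in naive, -1.15 and -3.31 in smoke, -5.47 and -5.46 in EV and -4.85 and -4.81 in MSC lung. Its smoke arrays were far apart but both above the other 6. The smoke difference was 2.17 (SE 0.61, adjusted p = 0.0226), and EV fell by 3.24 against smoke (adjusted p = 0.00752). MSC, not well above background on either array, was 6.09-fold lower than smoke in the fitted means. Usp18 passed the filter without the MSC arrays, so this comparison is given without its test. With normexp neither the smoke difference (0.67, adjusted p = 0.178) nor that of MSC against smoke (-0.22, adjusted p = 0.651) was called.

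Trim25 was at 1.76 and 1.38 in naive, -0.20 and 0.57 in smoke, 2.05 and 2.16 in EV and 2.24 and 1.67 in MSC lung. Both smoke arrays were the lowest, so that Trim25 moved opposite to Usp18 relative to the array. The differences of -1.38 for smoke (SE 0.37, adjusted p = 0.0185), 1.92 for EV against smoke (adjusted p = 0.00783) and 1.77 for MSC against smoke (adjusted p = 0.00454) turned to 1.58, -0.57 and -2.25 under spike-in scaling.

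Among the antiviral effectors, Isg20, an exonuclease that degrades single-stranded RNA, read -2.55 and -1.84 in naive, 0.00 and -0.52 in smoke, -2.26 and -2.24 in EV and -3.55 and -1.46 in MSC lung. The smoke arrays were the highest and the MSC arrays the most scattered. Its differences were 1.94 for smoke (SE 0.64, adjusted p = 0.0388), -1.99 for EV against smoke (adjusted p = 0.041) and -2.25 for MSC against smoke (adjusted p = 0.0174). Rsad2, which encodes viperin, the enzyme that makes a chain-terminating nucleotide, was at -0.24 and 0.65 in naive, -1.21 and -2.13 in smoke, -0.29 and -0.14 in EV and 0.35 and -0.78 in MSC lung. Both smoke arrays were the lowest, and the differences of -1.88 for smoke (SE 0.51, adjusted p = 0.0198) and 1.46 for MSC against smoke (adjusted p = 0.0385) turned to 1.09 and -2.57 under spike-in scaling. Its EV minus smoke difference of 1.45 was not called (adjusted p = 0.054).

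Bst2, or tetherin, holds budding virus at the cell surface. It was at 5.55 and 4.88 in naive, 3.74 and 4.29 in smoke, 5.47 and 5.54 in EV and 6.28 and 5.06 in MSC lung, and its smoke difference of -1.20 missed the threshold (SE 0.46, adjusted p = 0.0633). It was called lower with normexp (-1.05, adjusted p = 0.0174) and higher with spike-in scaling (1.76, adjusted p = 0.0135). The differences of 1.49 for EV against smoke (adjusted p = 0.0366) and 1.66 for MSC against smoke (adjusted p = 0.016) turned to -0.99 and -2.36 under spike-in scaling. Rtp4, an interferon-induced regulator of RNA viruses, read -0.67 and -1.13 in naive, 0.58 and -0.71 in smoke, -1.90 and -1.57 in EV and -2.41 and -3.01 in MSC lung. The MSC arrays were the lowest, and smoke overlapped naive. Its smoke difference was 0.84 (SE 0.47, adjusted p = 0.171), and it fell by 1.67 in EV against smoke (adjusted p = 0.0265) and by 2.65 in MSC against smoke (adjusted p = 0.00227). Cmpk2, the mitochondrial nucleotide kinase beside Rsad2 in the genome, had no call and ranged from -0.97 to 0.40.

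Of the other induced genes, Ifi27, a mitochondrial protein often used as a blood marker of interferon exposure, gave the most stable differences of the set. It was at 1.16 and 0.82 in naive, 3.48 and 2.45 in smoke, 0.53 and 0.15 in EV and 0.58 and 0.59 in MSC lung. Both smoke arrays lay well above the other 6. The smoke difference was 1.98 (3.94-fold, SE 0.39, adjusted p = 0.00635), EV fell by 2.63 against smoke (adjusted p = 0.00463) and MSC fell by 2.38 against smoke (adjusted p = 0.00159), and all 3 calls held in all 18 alternatives. Ifi35 read -1.76 and -2.54 in naive, -0.33 and -0.92 in smoke, -2.35 and -2.67 in EV and -1.47 and -2.41 in MSC lung. Its differences were 1.52 (SE 0.44, adjusted p = 0.0248), -1.89 (adjusted p = 0.0145) and -1.32 (adjusted p = 0.0327) in the same order.

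Ifi44 read 1.10 and 2.09 in naive, 0.02 and -0.31 in smoke, 0.50 and 0.63 in EV and 1.58 and 0.79 in MSC lung. The smoke arrays were the lowest on this probe. The differences of -1.74 for smoke (SE 0.42, adjusted p = 0.0132) and 1.33 for MSC against smoke (adjusted p = 0.0267) turned to 1.22 and -2.69 under spike-in scaling, and EV against smoke was not called (0.70, adjusted p = 0.21). A second Ifi44 probe gave 0.22 for smoke and -1.15 for MSC against smoke, and with the mean of both probes neither was called.

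Slfn4, of the Schlafen family of myeloid growth regulators, whose members are close copies of each other, was at -5.46 and -4.85 in naive, -1.33 and -2.61 in smoke, -3.49 and -4.31 in EV and -6.99 and -6.95 in MSC lung. It was well above background on 1 of the 2 naive arrays and on neither MSC array. Both smoke arrays were the highest, followed by both EV arrays, and the order of the naive and MSC arrays is not given because most of them were at background. Slfn4 passed the filter through the smoke and EV arrays alone, where it was high, so the comparisons with naive and MSC lung are given without their tests. The fitted smoke minus naive difference was 3.18 (SE 0.49), with the naive level measured on 1 of 2 arrays, and MSC was at least 15.2-fold lower than smoke. Slfn4 fell by 1.93 in EV against smoke (SE 0.49, adjusted p = 0.0195). With normexp the differences were 0.85 for smoke, -0.81 for EV against smoke and -0.49 for MSC against smoke, and the last was not called (adjusted p = 0.193).

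Among the sensors and kinases none of the 5 measured genes was called for smoke, while Eif2ak2 and Ifih1 were called after treatment. Eif2ak2, the kinase PKR that halts translation on double-stranded RNA, was at -2.69 and -3.55 in naive, -1.84 and -2.49 in smoke, -3.31 and -3.47 in EV and -3.59 and -3.78 in MSC lung. Both smoke arrays were the highest, but the smoke difference of 0.95 missed the threshold (SE 0.38, adjusted p = 0.0708), which it passed with cyclic loess (1.45, adjusted p = 0.0251) and spike-in scaling (3.92, adjusted p = 8.27e-05). It fell by 1.23 in EV against smoke (adjusted p = 0.0368) and by 1.52 in MSC against smoke (adjusted p = 0.0102), of which the first was -0.41 and not called with normexp (adjusted p = 0.203) and the second turned to 0.10. A second Eif2ak2 probe gave 0.56 for smoke, -0.31 for EV against smoke and -0.84 for MSC against smoke. With the mean of both probes the call for EV against smoke was lost (adjusted p = 0.111). Ifih1, the sensor MDA5, read -2.54 and -2.92 in naive, -3.29 and -3.80 in smoke, -3.05 and -2.55 in EV and -2.03 and -2.81 in MSC lung. It had no call for smoke (-0.82, SE 0.38, adjusted p = 0.113) but was called lower with normexp (-1.19, adjusted p = 0.00109) and higher with spike-in scaling (2.15, adjusted p = 0.00337), and its difference of 1.12 for MSC against smoke (adjusted p = 0.0355) turned to -2.90 under spike-in scaling. Dhx58, Zbp1 and Adar had no call in these 3 comparisons, but spike-in scaling called each higher in smoke and lower after both treatments. Normexp turned Zbp1 to -1.25 for smoke, 0.88 for EV against smoke and 1.84 for MSC against smoke, all called. Quantile normalisation and cyclic loess called Dhx58 lower in MSC against smoke (-1.54 and -1.58), and quantile normalisation did so for Zbp1 (-2.36).

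Parp9, Parp14 and Dtx3l act together in ADP-ribosylation and ubiquitylation downstream of interferon. Parp9 was at -2.01 and -1.90 in naive, -1.91 and -2.50 in smoke, -2.21 and -1.96 in EV and -0.99 and -1.48 in MSC lung, and Parp14 at 0.93 and 0.44, 1.60 and 1.00, 0.57 and 0.62, and 0.02 and 0.05 in the same order. The MSC arrays were thus the highest for Parp9 and the lowest for Parp14. In MSC against smoke Parp9 was higher by 0.97 (SE 0.33, adjusted p = 0.0337), which turned to -3.05 under spike-in scaling, and Parp14 fell by 1.26 (SE 0.32, adjusted p = 0.0111). Neither passed for smoke or for EV, although Parp14 was called higher in smoke and lower in EV with normexp (0.66 and -0.71) and with cyclic loess (1.11 and -1.13). Dtx3l had no call, nor did the IFIT genes Ifit2 and Ifit3, which bind foreign RNA, or the guanylate-binding proteins Gbp2 and Gbp5. Normexp called Dtx3l (-0.66) and Ifit2 (-0.88) lower in smoke, and Ifit2 higher in MSC against smoke (0.74). A second Dtx3l probe gave 1.31 for MSC against smoke, where the first gave -0.25. Ifit3 stood 1.13 higher in smoke than in naive lung (SE 0.55, adjusted p = 0.121). Ifit1, the best-known IFIT gene, was at or near background on all 8 arrays (-10.2 to -6.62) and could not be tested.

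**Figure D2:**
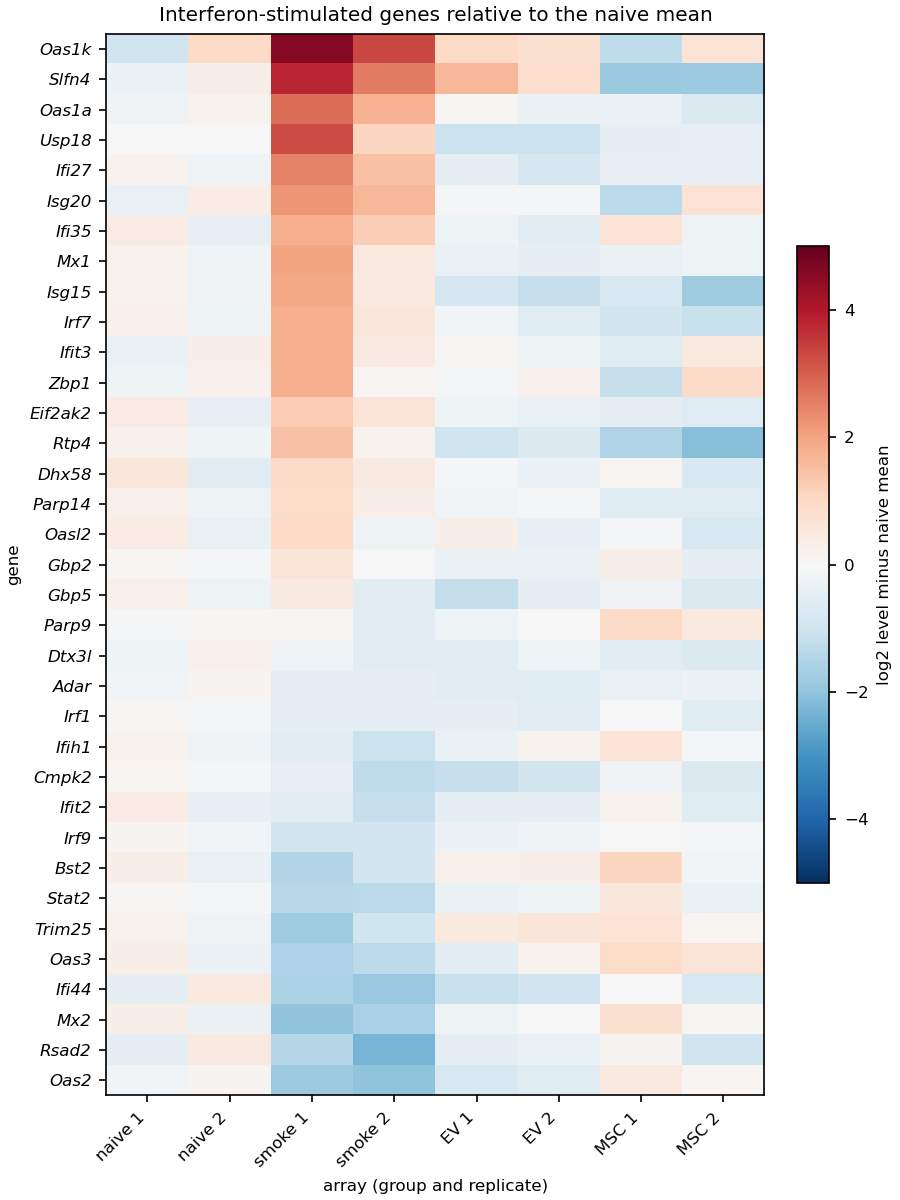
Level of the 35 measured genes (rows, ordered by the smoke minus naive difference) on each of the 8 arrays (columns), as the log2 level minus the gene's mean over the naive arrays, with red above and blue below. The smoke columns are red in the upper rows, deepest for Oas1k and Slfn4 on smoke array 1, and blue in the lower rows, which turned positive under spike-in scaling.

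Within the set, lung treated with vesicles had more genes called lower than higher against smoke lung. The EV group was lower than smoke in Usp18, Oas1k, Ifi27, Oas1a, Isg15, Isg20, Slfn4, Ifi35, Rtp4, Mx1, Irf7 and Eif2ak2, with differences from -3.24 (Usp18) to -1.23 (Eif2ak2). It was higher in Trim25, Mx2, Bst2, Oas3, Oas2 and Stat2, by 1.09 (Stat2) to 1.92 (Trim25), and all 6 of these turned negative under spike-in scaling. These were 12 lower genes (9.96% of all features were) and 6 higher genes (29.9% of all features were) of 35. Of the 30 genes well above background on all 8 arrays, 9 were lower and 5 higher. The median was -0.67 over the 35 genes and -0.32 over the 30, beside 0.55 over all features.

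The vesicle calls were sensitive to single arrays. Without EV array 2, 1 of the 18 calls held (Ifi27), without smoke array 1, 3 held, and without EV array 1, 8 held. Bst2, Isg20, Oas2, Oas3 and Stat2 lost the call without smoke array 2. The share of all features called in such fits is not given here, so these losses are not set against those of other genes. Higher and lower genes numbered 2 and 12 with quantile normalisation (27.4% of all features called in either direction), 1 and 14 with cyclic loess (30.8%), 9 and 13 with normexp (68.7%) and 0 and 31 with spike-in scaling (74%). Bst2, Oas2, Oas3 and Stat2 lost the call with quantile normalisation and with cyclic loess, Mx2 with cyclic loess, Isg20 with quantile normalisation and Eif2ak2 with normexp. Without the filter on dim probes higher and lower genes numbered 3 and 6, and the share of all features called is not given here.

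Lung treated with the stem cells also differed from smoke lung in both directions. The MSC group was lower in Slfn4, Oas1k, Oas1a, Rtp4, Usp18, Isg15, Ifi27, Isg20, Irf7, Mx1, Eif2ak2, Ifi35 and Parp14, and higher in Oas2, Oas3, Mx2, Trim25, Bst2, Stat2, Rsad2, Ifi44, Ifih1, Parp9 and Irf9, and the second list turned negative throughout under spike-in scaling. These were 13 lower genes (16.4% of all features were) and 11 higher genes (43.3% of all features were) of 35. Oas1k, Slfn4 and Usp18 passed the filter without the MSC arrays, so their place among the lower genes is in part set by the filter. Of the 30 genes well above background on all 8 arrays, 10 were lower and 10 higher. The median was -0.42 over the 35 genes and -0.32 over the 30, beside 0.74 over all features. The calls of Ifi27, Irf7, Isg15, Oas1a and Rtp4 held in all 18 alternatives.

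Counts of higher and lower genes for the stem cells were 5 and 18 with quantile normalisation (53.7% of all features called in either direction), 4 and 17 with cyclic loess (54.9%), 13 and 9 with normexp (78.7%) and 0 and 35 with spike-in scaling (88.7%). Bst2, Ifi44, Ifih1, Irf9, Parp9 and Rsad2 lost the call with quantile normalisation and with cyclic loess, Stat2 with cyclic loess, and Oas1k, Slfn4, Usp18 and Eif2ak2 with normexp. Without smoke array 1, Bst2, Eif2ak2, Ifi35, Ifi44, Ifih1, Irf9, Isg20, Mx1 and Parp14 lost the call. Ifi44, Ifih1, Irf9, Parp9 and Rsad2 did so without smoke array 2 and, with Bst2, Isg20 and Mx1, without MSC array 1. A fit of the MSC and smoke arrays alone gave 7 higher genes. The share of all features called in these fits is not given here, so these losses are not set against those of other genes.

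**Figure D3:**
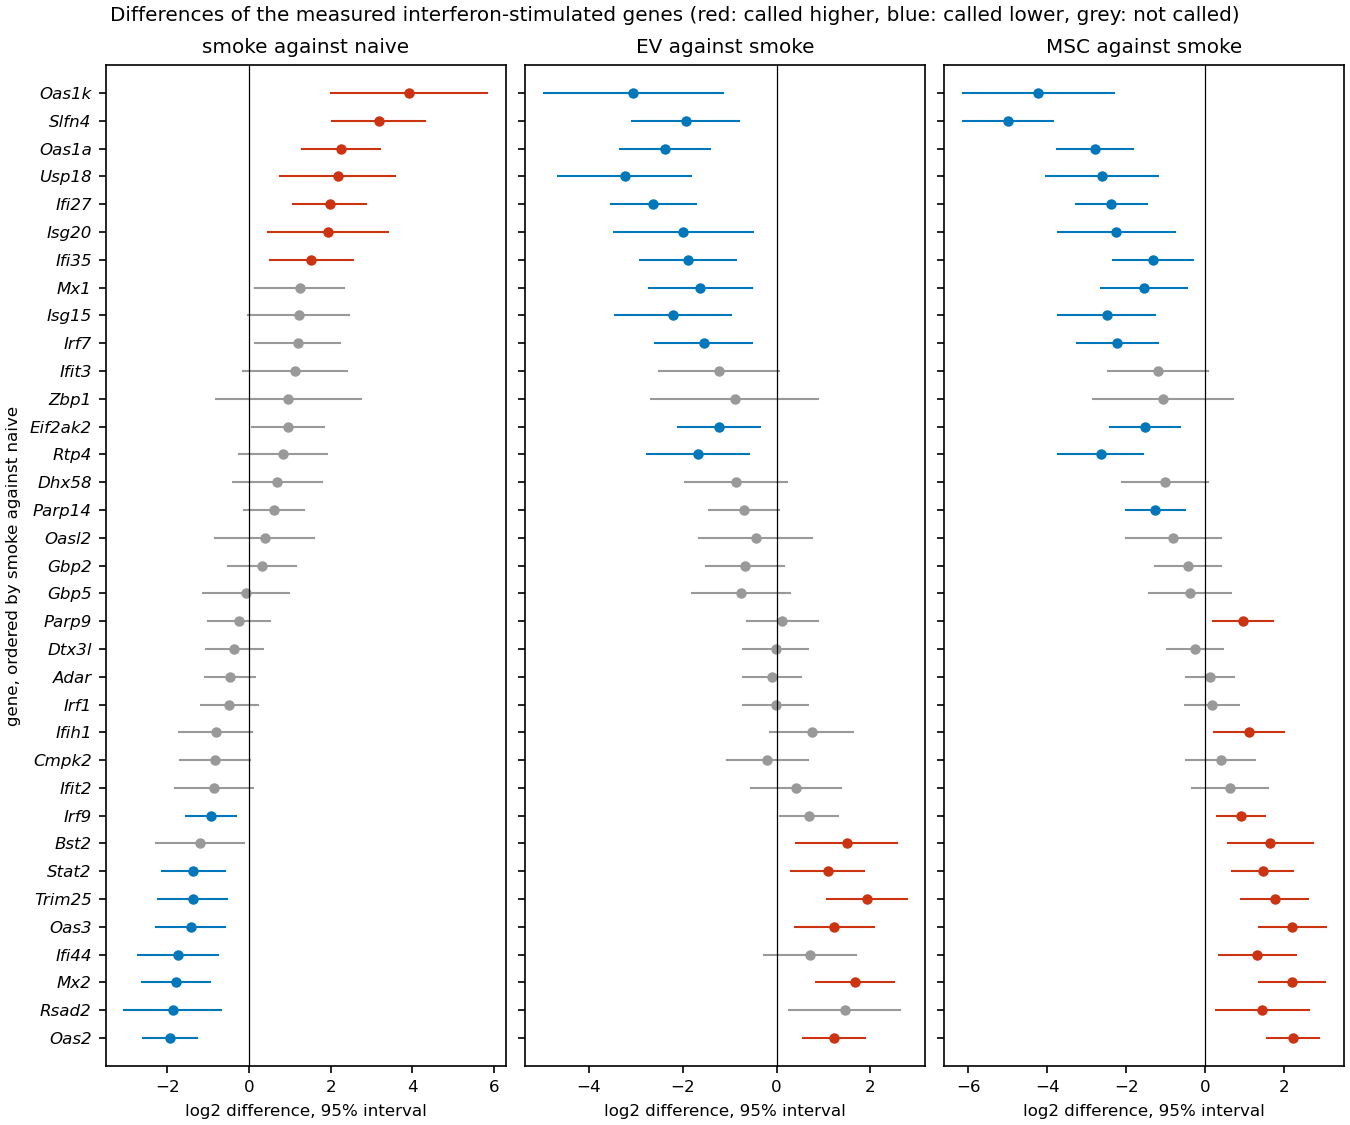
Log2 differences (x axis) with 95% intervals of the 35 measured genes (y axis, ordered by smoke against naive) in the 3 comparisons that share the smoke arrays, in red where called higher, blue where called lower and grey where not called. Genes called higher in smoke stand in blue in both treatment panels, and genes called lower in smoke lie at or above 0 there, the latter turning to the other side under spike-in scaling.

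The 2 treatments were compared directly, since this tests whether the vesicles and the cells left different levels. Of the 30 genes well above background on all 8 arrays, limma called 0, and 2 had an unadjusted p under 0.05, as did 31% of all features. Of all 35, it called Slfn4 alone, higher in EV, and that test is not given because of the filter. Slfn4 passed the filter through the smoke and EV arrays alone and was not well above background on either MSC array, so the filter had a part in this call, and its size is a bound, with EV at least 3.98-fold above MSC. Over all features 1.8% were called higher and 5.34% lower. The Slfn4 difference turned to -0.31 with normexp (adjusted p = 0.462), and the call was lost without the filter on dim probes, in a fit of the EV and MSC arrays alone, and without any 1 of the smoke, EV or MSC arrays. For the 30 genes the 95% intervals of EV minus MSC reached from -1.67 to 2.06, so the missed threshold does not show that the levels were alike. Normexp called 5 genes lower in EV (Oas2, Oas3, Zbp1, Parp9 and Ifi35, with 51% of all features called in either direction), and spike-in scaling called 12 higher (40.8% of all features were called in either direction), including Rtp4 (2.51) and Irf7 (2.20).

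Neither treatment group differed from naive lung in a gene of the set at the threshold. For EV against naive limma called 0 of the 35 genes (0% of all features), and 4 had an unadjusted p under 0.05, as did 4.26% of all features. Those were Cmpk2 (-1.03), Ifi44 (-1.04), Oas2 (-0.70) and Slfn4, which was above background on 1 of 2 naive arrays. For MSC against naive limma called 0 of 35 (0.00398% of all features), and 3 had an unadjusted p under 0.05, as did 21.9% of all features. Those were Rtp4 (-1.81, 95% interval -2.90 to -0.72), Isg15 (-1.28, -2.51 to -0.04) and Slfn4, for which MSC was at least 1.67-fold lower, given that it was above background on neither MSC array and on 1 of 2 naive arrays. Each of the normexp, quantile and loess settings also called 0 in both comparisons, while spike-in scaling called Rtp4 (-2.87) and Slfn4 lower in MSC than in naive lung. The 95% intervals over the 30 genes well above background on all 8 arrays reached from -2.23 to 1.43 for EV and from -2.90 to 1.53 for MSC.

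The rest of the interferon pathway was described from a list of 120 further genes, of which 82 had a probe and 76 were measured. In smoke against naive 13 were higher and 19 lower (12.1% and 35.4% of all features were). Against smoke, EV lung had 13 higher and 13 lower (29.9% and 9.96% of all features) and MSC lung 24 and 17 (43.3% and 16.4%), and EV against MSC gave 0 and 3 (1.8% and 5.34%). The called genes with the smallest p were Trim21, a ubiquitin ligase and antibody receptor of the cytosol (-3.14), Lgals9, a galectin (2.58), and Ifitm2, a membrane protein that blocks viral entry (2.45), for smoke. For EV they were Trex1, a DNA exonuclease (-3.25), Ifi47, an immunity-related GTPase (-3.75), and Lgals9 (-2.20). For MSC they were Trim21 (4.06), Irf8, a factor of myeloid cells (3.68), and Lgals9 (-2.94). Under spike-in scaling Irf8 turned to -0.34, and Trim21 was at -0.18 for smoke and 0.04 for MSC. Of the 19 genes lower in smoke 18 turned positive under spike-in scaling, the other being Trim21, as 13 of the 13 higher in EV and 23 of the 24 higher in MSC turned negative.

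At the top of the pathway, 3 interferon genes were measured, and the called ones are named here after their values were seen. Ifna5 (-1.47) and Ifnk (-1.10) were lower in smoke than in naive lung relative to the array, and both turned positive under spike-in scaling, which called all 3 higher. For smoke no interferon gene was called with quantile normalisation or cyclic loess, while normexp called all 3 lower. Against smoke, normexp called all 3 higher after each treatment, and cyclic loess called 1 higher in EV. Of the 5 receptor genes, Ifnlr1 (-1.30) and Ifngr2 (-1.06) were lower in smoke and also turned positive under spike-in scaling. Of the 5 kinases and STATs, Jak2 was higher (1.11) and Stat3 lower (-1.03, positive under spike-in scaling).

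Markers of several immune cell types were compared between smoke and naive lung, for which 12.1% of all features were called higher and 35.4% lower. Of 8 macrophage markers 5 were higher in smoke than in naive lung and 0 lower, of 5 measured neutrophil markers 3 and 0, of 5 markers of natural killer and other cytotoxic cells 3 and 0, of 5 T cell markers 1 and 2, and of 5 markers of plasmacytoid dendritic cells, the main interferon producers, 0 and 1. The lower T cell and plasmacytoid markers (Cd3d, Cd3e and Irf8) turned positive under spike-in scaling, which called 4 higher and 0 lower in each of these 2 lists. With normexp the counts of higher and lower markers were 3 and 2 for macrophages, 1 and 1 for neutrophils, 3 and 2 for cytotoxic cells, 0 and 3 for T cells and 0 and 3 for plasmacytoid cells. The summed macrophage level (log2) was 1.09 to 1.45 in naive, 2.08 to 2.69 in smoke, 1.19 to 1.36 in EV and 1.01 to 1.02 in MSC lung. The cytotoxic sum was -0.12 to 0.52, 1.34 to 2.68, 0.11 to 0.61 and -0.37 to 0.09 in the same order. Both sums were thus highest on the smoke arrays, as the genes called higher in smoke were, and higher on smoke array 1 than on smoke array 2. The neutrophil sum (2.38 to 3.17, 3.14 to 3.55, 3.57 to 3.88 and 2.47 to 3.66) and the plasmacytoid sum (2.08 to 2.25, 2.18 to 2.41, 2.30 to 2.39 and 1.81 to 3.08) did not follow that order.

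In EV against smoke 4 macrophage markers and 3 cytotoxic markers were lower, and 0 were higher. Over all features 9.96% were lower and 29.9% higher. In MSC against smoke 4 and 4 were lower and 0 higher (16.4% and 43.3% of all features). Higher and lower markers for EV were 1 and 1 for T cells, 1 and 1 for neutrophils and 2 and 0 for plasmacytoid cells. For MSC these were 2 and 1, 1 and 2, and 2 and 0. The higher ones (Cd3e, Irf8, S100a9 and Tlr9, with Cd3d for MSC) turned negative under spike-in scaling. With normexp the counts of higher and lower markers for EV were 2 and 3 for macrophages and 0 and 3 for cytotoxic cells. For MSC they were 3 and 3 for macrophages and 2 and 3 for cytotoxic cells. No measured probe was left for Mpo, Elane and Cxcr2 (neutrophils), Ncr1 (natural killer cells), Cd2 (T cells), Siglech (plasmacytoid cells), Cd79a and Ms4a1 (B cells) or Nppa (heart muscle). Heart muscle markers were high on EV array 1 (4.05) and MSC array 2 (5.16), against -1.85 to 0.27 on the other 6. In whole lung, more cells of a type and more RNA per cell cannot be told apart, and the part of these cells in the results on interferon-stimulated genes was not tested.

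**Figure D4:**
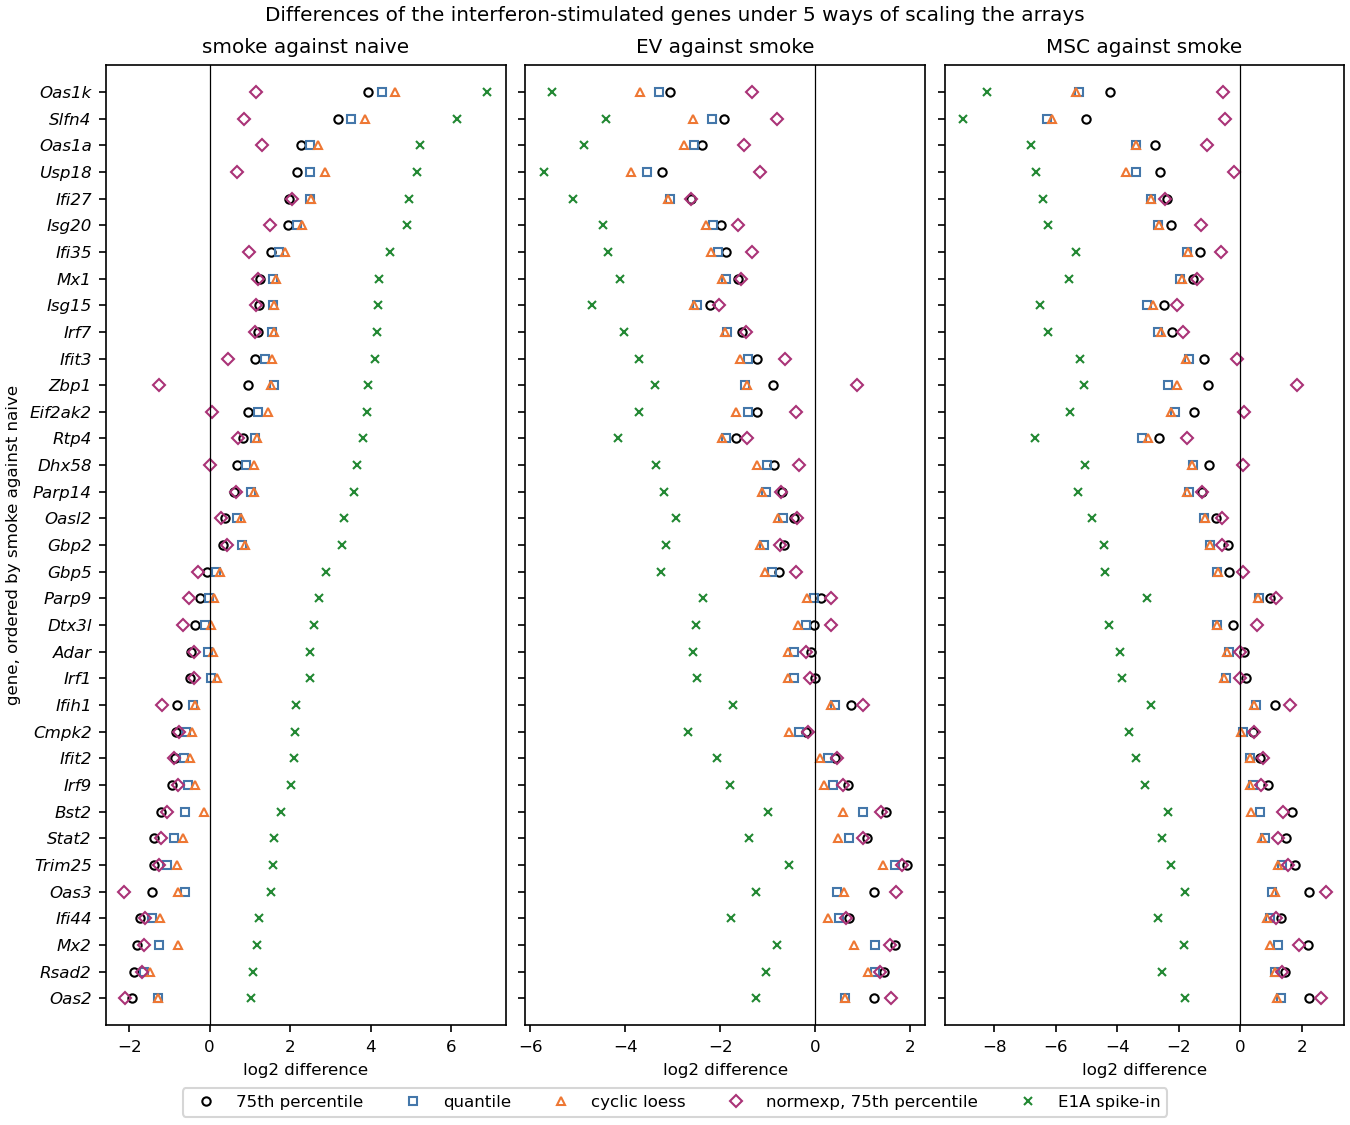
Log2 differences (x axis) of the 35 measured genes (y axis, ordered as in the plot of differences) under 5 ways of scaling the arrays, 1 symbol each, in the 3 comparisons that share the smoke arrays. The spike-in crosses lie to the right of 0 for all 35 genes in smoke against naive and to the left of 0 in both treatment panels, while the normexp diamonds lie nearest 0 for Oas1k and Slfn4.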

How the data were processed

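Each of the 8 samples was 1 one-colour (Cy3) Agilent array, deposited by the authors as scanner output of Feature Extraction 10.7.3.1, per the file headers. The deposited processed signal is an intensity that the scanner software had background-subtracted, per the file headers. It was used here as log2 minus each array's 75th percentile over non-control spots, and spots of a probe were averaged. Probes were named through their accession in a RefSeq gene table (GRCr8). A probe was kept if both arrays of some group read well above background (29612 of 45598), and a gene was represented by its brightest kept probe. No spot was saturated. The 4 group means were fitted with limma 3.58.1 in R 4.3.3 (lmFit, eBayes) on all 25097 features, with Benjamini-Hochberg adjustment and a threshold of 0.05, and the code was tested on simulated data. Figures were drawn with matplotlib 3.10.9.

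All genes of the set with a probe are described, and differences are given for every gene called and for Irf1, Irf7, Irf9, Stat2, Isg15, Mx1, Oas1a and Usp18. Ifit1 was to be given with these but could not be tested. Of the wider list, the 3 called genes with the smallest p per comparison are named. The genes and lists were chosen with earlier results of these data known. Nothing in the labels says that the 2 arrays of a group came from separate rats: p-values then reflect only how these samples vary, possibly for technical reasons, and 2 arrays a group limit the precision. Alternatives were normexp (offset 50), quantile, cyclic loess and E1A spike-in scaling, other filters, probe averaging, a fit of the groups compared alone, another variance prior, the replicate number as a block and leaving out each array.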

Additional observations from a re-analysis of the deposited data

Results flagged for a closer look

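Slfn4 was singled out because its change from smoke lung differed between the treatments, with a fitted EV minus MSC difference of 3.07 on the log2 scale (both EV arrays above both MSC arrays). Neither MSC array was well above background, so the size is a bound of at least 3.98-fold, and the gene passed the filter through the smoke and EV arrays alone, where it was high, so the filter had a part in the call. With normexp background correction the difference was -0.31 (adjusted p = 0.462 by limma with Benjamini-Hochberg adjustment).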

How the results depend on the processing

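Spike-in scaling turned the sign of 29 named differences. It gave 32 higher and 0 lower genes for smoke against naive, 0 and 31 for EV against smoke, 0 and 35 for MSC against smoke, 12 calls for EV against MSC and 2 for MSC against naive. For smoke against naive it turned the differences of Ifi44 (1.22), Irf1 (2.48), Irf9 (2.02), Mx2 (1.16), Oas2 (1.03), Oas3 (1.53), Rsad2 (1.09), Stat2 (1.59) and Trim25 (1.58). For EV against smoke it turned Bst2 (-0.99), Irf9 (-1.79), Mx2 (-0.81), Oas2 (-1.26), Oas3 (-1.25), Stat2 (-1.40) and Trim25 (-0.57). For MSC against smoke it turned Bst2 (-2.36), Ifi44 (-2.69), Ifih1 (-2.90), Irf1 (-3.84), Irf8 (-0.34), Irf9 (-3.11), Mx2 (-1.82), Oas2 (-1.79), Oas3 (-1.81), Parp9 (-3.05), Rsad2 (-2.57), Stat2 (-2.55) and Trim25 (-2.25). These follow from the constant added to every gene. Cyclic loess gave 11 higher and 3 lower genes for smoke, 1 higher for EV and 4 higher for MSC against smoke, and quantile normalisation gave 2 higher for EV and 5 higher for MSC. Irf1 was called under spike-in scaling but under no other scaling. It changed sign for smoke (0.045 quantile, 0.17 loess) and for MSC against smoke (-0.47 quantile, -0.53 loess, -0.016 normexp). Normexp gave 14 lower genes for smoke and 5 calls for EV against MSC, and turned Eif2ak2 in MSC against smoke (0.10) and Slfn4 in EV against MSC (-0.31). With the mean of both probes Irf9 turned to 0.072 for smoke, -0.093 for EV and -0.64 for MSC against smoke. Without the filter, EV against smoke had 3 higher and 6 lower genes and EV against MSC had 0 calls. A fit of the groups compared alone gave 7 higher for MSC against smoke and 0 calls for EV against MSC. The cause of the changes other than under spike-in scaling was not tested. For the settings other than the scalings, the share of all features called is not given here.

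Leaving out 1 array at a time gave 3 to 11 higher and 2 to 9 lower genes for smoke, 0 to 7 and 1 to 12 for EV against smoke, 5 to 11 and 8 to 14 for MSC against smoke, and 0 to 1 calls for EV against MSC. The lone array of a group was then assumed to vary like the others. Irf1 ran from -0.039 to 0.0070 in EV against smoke (positive without EV replicate 2) and from -0.13 to 0.49 in MSC against smoke (negative without MSC replicate 1). Replicate numbers coincide with the row on the single slide. Over all features the deviations of same-numbered arrays had correlations from -0.149 to 0.139 between groups. With 2 arrays a group this does not settle whether the number pairs the samples. With the number as a replicate block the count of higher genes for smoke rose from 7 to 11. Signals at background limit Oas1k, Slfn4, Usp18, Zbp1 and, on naive array 2, Oas3.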
